A study of Sus scrofa with 11 samples.

Results

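Ubiquitin ligase genes of 7 families, FBXO, FBXL, FBXW, KLHL, ASB, TRIM and RNF, were compared between pig back muscles that differed in fibre type. The genes were chosen by name: a row belonged to the set when its symbol began with one of these prefixes followed by a digit. Of 25322 gene rows 176 did so, and 121 of them reached 1 CPM, a count scaled to library size, in at least 4 of the 11 pigs and were kept. The tissue was longissimus lumborum of female pigs aged 23 weeks, sorted into groups by the histology of the same muscle, and no genotype, diet or treatment separates the groups in the labels. In 7 pigs, called fibre1, slow type I fibres exceeded 17% and fast glycolytic type IIB fibres stayed below 70%. In 4 pigs, called fibre2B, type I fibres stayed below 8% and type IIB fibres exceeded 70%. The labels name each pig as a separate sample. Whole muscle was sequenced, so each value mixes all fibre types with the other cells of the tissue.

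Ubiquitin ligases choose which proteins are tagged with ubiquitin and sent to the proteasome or rerouted in the cell. F-box proteins (FBXO, FBXL, FBXW) are the substrate receptors of ligases built on the scaffold cullin 1. KLHL proteins do the same on cullin 3 and ASB proteins on cullin 5, whereas most TRIM and RNF proteins carry their own RING domain. In skeletal muscle, atrogin-1 (FBXO32) and MuRF1 (TRIM63) rise in fasting, disuse and other forms of wasting under control of FOXO transcription factors, and other members act on the sarcomere or on membrane repair.

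Of the 55 rows not kept, 4 were at 0 in every pig and 4 (KLHL28, RNF169, TRIM59 and TRIM65) reached 1 CPM in 1 or 2 pigs. Of the kept members 95 reached it in all 11 pigs and 5 (FBXL20, KLHL21, KLHL25, RNF6 and TRIM62) in only 4 or 5. A list of 30 ligases with known expression or function in striated muscle was used to name members, and 20 of them were kept. FBXL22, TRIM54, TRIM7, KLHL34, KLHL38, KLHL41, ASB12, ASB14 and ASB16 had no matching ID and were not analysed here, and RNF207 held 5 counts in all. No kept member shared identical counts with another ID. The library kit is not described as stranded, so reads of an overlapping antisense gene cannot be told apart from those of a member.

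The shallowest library, fibre2B pig 14, held 14832736 counts and the deepest, fibre1 pig 12, held 36374829. The kept members together took 0.185% to 0.284% of the counts. Fibre1 pigs 5 and 6 stood apart, with 45.2% and 44.1% of their counts on the 10 most abundant genes against 32.9% to 38.1% in the others, and with the lowest scaling factors, 0.718 and 0.779. The 6 tested skeletal muscle markers summed to 91330 to 197000 CPM in fibre1, highest in pigs 5 and 6, against 68570 to 103900 CPM in fibre2B, and none passed edgeR's test. Of the 7 tested slow-fibre genes used to check the grouping, 7 had positive log2 fold changes and 1 passed. Sums of fibroblast and matrix markers (5 tested, 2 higher in fibre2B) were 472 to 977 CPM in the fibre1 pigs against 745 to 1438 CPM in the fibre2B pigs. For blood markers (3 tested, 1 higher in fibre2B) the sums were 137 to 468 CPM against 423 to 957 CPM. Those of satellite cells (4 tested, 1 higher in fibre2B) were 25.7 to 37.2 CPM against 32.7 to 55.4 CPM, and those of immune cells (8 tested, none called) 8.26 to 32.0 CPM against 18.2 to 43.1 CPM. Fibre2B pig 14 held the highest of each of these 4 sums, and the lowest sums of skeletal muscle and of slow-fibre genes. Endothelial markers (6 tested, none called) summed to 139 to 195 CPM in fibre1 against 124 to 166 CPM in fibre2B, lowest in pig 14. Smooth muscle and pericyte markers (7 tested, 1 higher in fibre2B) had 78.45 to 150.6 CPM against 81.3 to 134.3 CPM, with 128.5 CPM in pig 14. The part of these other cells in the results below was not tested.

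The first question was whether ligase genes as a group differed between the muscles. Of the 121 kept members 7 rose in fibre1 and 4 rose in fibre2B, that is 11 passed a Benjamini-Hochberg adjusted p of 0.05 over all genes tested by edgeR's quasi-likelihood test. The 11 include ASB18, which met the level rule only through fibre1. Together they are 9.09% of the members, and over all 11329 genes tested the share was 9.01%, close to the members' share. Among tested genes that met the same level rule as the members, 9.87% passed, 4.89% higher in fibre1 and 4.98% higher in fibre2B. By direction, 5.79% of the members rose in fibre1 against 4.38% of all genes, and 3.31% rose in fibre2B against 4.63%. The median log2 fold change, written here as fibre1 minus fibre2B, was 0.0217 over the members and 0.0073 over all genes tested. Positive values were seen in 62 members and negative values in 59. The groups did not overlap in 10 members, ASB18 among them (8.26%, against 7.55% of all genes tested). In whole tissue, fewer cells of a type and less RNA per cell cannot be told apart. P-values measure the spread between these pigs only.

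The number of calls depended on which pigs were in the fit. Without fibre2B pig 14, 0 of the 11 remained called by edgeR (adjusted p from 0.0574 to 0.147), and 31 members had an unadjusted p under 0.05. DESeq2 without that pig called 7, which is 5.79% of the members against 6.73% of all genes. Without fibre1 pigs 5 and 6 together, a setting chosen after seeing the data, edgeR also called 0 members, and 0.249% of all genes. For the 11 the adjusted p ran from 0.0502 to 0.125, and 33 members had an unadjusted p under 0.05. No share of all genes was taken for these 2 counts at an unadjusted p. The count was 7 without fibre1 pig 1 or pig 6, 5 without pig 2 or pig 5 and 20 without pig 12, and 4 without fibre2B pig 10 and 3 without pig 16. The share of all genes called moved with it, from 9.01% to between 2.59% and 4.25% where the members' count fell in these fits and to 13.9% without pig 12, and it was 0 without pig 14. All 11 kept their direction under each setting run. Every one of the 11 lost its edgeR call without pig 14 and without pigs 5 and 6, and 9 of them lost it with library totals as the only scaling (0.0641 to 0.179). DESeq2 without pig 14 did not call ASB18, FBXO31, FBXW5 or RNF111. Of these, 3 had a DESeq2 adjusted p from 0.0637 to 0.0886 and the other had none. Remaining losses are named with the genes below.

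**Figure D1:**
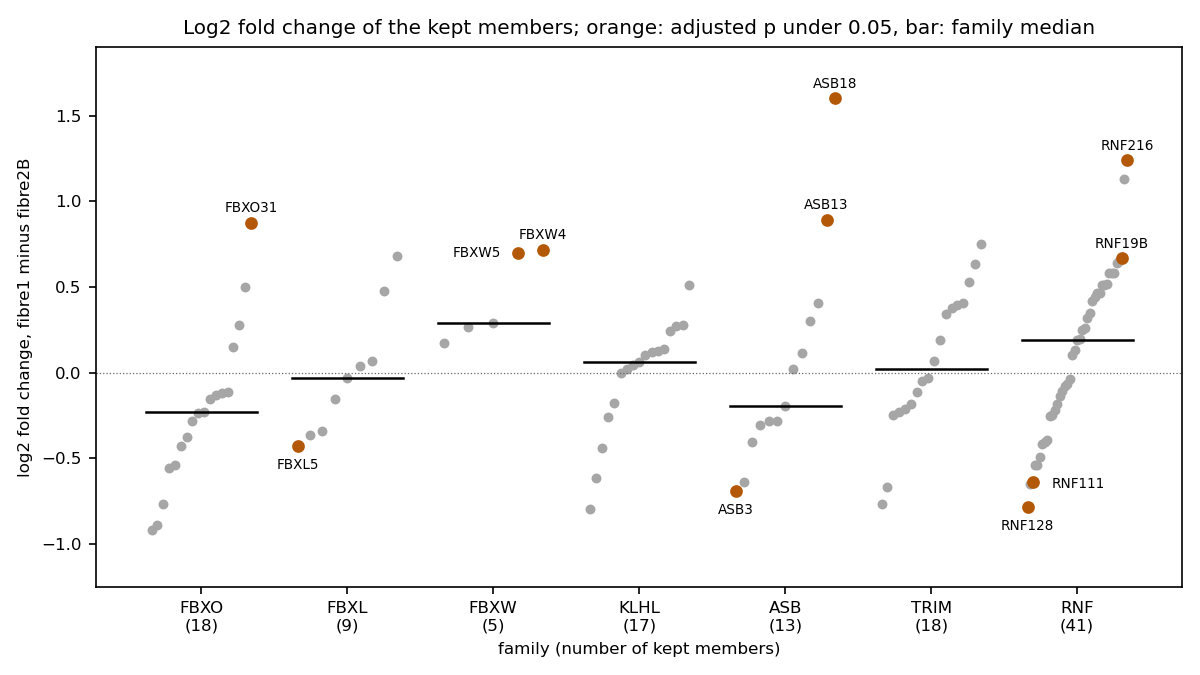
Log2 fold change (fibre1 minus fibre2B) of each kept member, by family, with the number of members under each name. Orange points passed an adjusted p of 0.05, grey points did not, and bars mark the family medians, which lie between -0.23 for FBXO and 0.29 for FBXW.

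By family, edgeR called 1 of 18 FBXO members, 1 of 9 FBXL, 2 of 5 FBXW, 3 of 13 ASB and 4 of 41 RNF members. These are 5.56%, 11.1%, 40%, 23.1% and 9.76%, beside 9.01% of all genes tested. The 3 ASB calls include ASB18, which met the level rule only through fibre1, so the ASB share supports nothing about the family. It called 0 of 18 TRIM members (5 at an unadjusted p under 0.05, 3 by DESeq2, 0 by limma-voom) and 0 of 17 KLHL members (1 at an unadjusted p under 0.05, 0 by DESeq2 and 0 by limma-voom). Family medians were -0.23 for FBXO, -0.03 for FBXL, 0.29 for FBXW, 0.06 for KLHL, -0.20 for ASB, 0.02 for TRIM and 0.19 for RNF. With library totals as the only scaling, which moved the median of all genes to -0.19, those of KLHL (-0.09), TRIM (-0.19) and RNF (-0.03) were negative. The FBXW median was 0.60 without fibre2B pig 10, and the ASB median was 0.14 without fibre2B pig 11. Of the FBXO members 14 of 18 had negative values, whereas all 5 FBXW members had positive ones. Differences between families were not tested, and with 5 to 41 members each the shares are coarse.

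Among the F-box receptors, FBXO31, FBXW4 and FBXW5 rose in fibre1 and FBXL5 rose in fibre2B. FBXW4 (ENSSSCG00000010566) had 44.8, 50.0 and 72.5 CPM as the lowest, median and highest fibre1 values, and 39.0, 39.9, 24.7 and 29.9 CPM in fibre2B pigs 10, 11, 14 and 16. Every fibre1 pig was above every fibre2B pig, with means of 54.9 ± 9.69 CPM (SD, n = 7) and 33.4 ± 7.33 CPM (n = 4). The log2 fold change was 0.72 ± 0.17 (SE; edgeR adjusted p = 0.0285), and the adjusted p also rose above 0.05 when fibre1 pig 2 or 5 was left out, or fibre2B pig 16 (range 0.054 to 0.0925, pig 14 included).

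FBXW5 (ENSSSCG00000005839), a receptor with WD40 repeats like FBXW4, had 12.7, 14.5 and 18.8 CPM in fibre1 (lowest, median, highest) and 9.49, 12.6, 6.19 and 10.4 CPM in fibre2B pigs 10, 11, 14 and 16. The groups did not overlap, but the lowest fibre1 pig, at 12.71 CPM, and fibre2B pig 11, at 12.57 CPM, were nearly level. Its log2 fold change was 0.70 ± 0.20 (edgeR adjusted p = 0.0431). The adjusted p also rose above 0.05 when fibre1 pig 1, 2, 5 or 6 was left out, or fibre2B pig 10 or 16 (range 0.068 to 0.128, pig 14 included), and with no filter (0.0541). The other 3 kept FBXW members had values of 0.17 to 0.29. They include FBXW7, the receptor that marks MYC and cyclin E, with 12.6 ± 2.84 against 10.5 ± 2.48 CPM.

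FBXL5 (ENSSSCG00000008740), the iron-sensing receptor that marks the iron regulatory protein IRP2, was the member with the smallest spread. Its within-group coefficient of variation was 9.58%. It had 18.7, 24.9 and 28.5 CPM in fibre1 (lowest, median, highest) and 33.8, 30.9, 32.2 and 33.6 CPM in fibre2B pigs 10, 11, 14 and 16. All fibre2B pigs were above all fibre1 pigs, for a log2 fold change of -0.43 ± 0.12 (edgeR adjusted p = 0.0468). The adjusted p also rose above 0.05 when fibre1 pig 1, 2, 5, 6 or 7 was left out, or fibre2B pig 10, 11 or 16 (range 0.051 to 0.117, pig 14 included), and with no filter (0.0784). Beside it, 1 of 3 blood markers was higher in fibre2B, where 9.01% of all genes tested were called, and their summed ranges, given above, overlapped. The part of blood in the FBXL5 difference was not tested.

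FBXO31 (ENSSSCG00000002654), a receptor that marks cyclin D1, had 9.41, 18.5 and 24.4 CPM in fibre1 (lowest, median, highest) and 8.71, 15.2, 7.38 and 8.28 CPM in fibre2B pigs 10, 11, 14 and 16. Fibre1 pig 17, the lowest of its group, lay below fibre2B pig 11, so this was the called member whose groups overlapped. The log2 fold change was 0.87 ± 0.25 (edgeR adjusted p = 0.0482). The adjusted p also rose above 0.05 when fibre1 pig 1, 2, 5, 6, 7 or 12 was left out, or fibre2B pig 10 or 16 (range 0.0537 to 0.147, pig 14 included), with no filter (0.0531), with upper-quartile factors (0.054) and with limma-voom (0.0535).

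**Figure D2:**
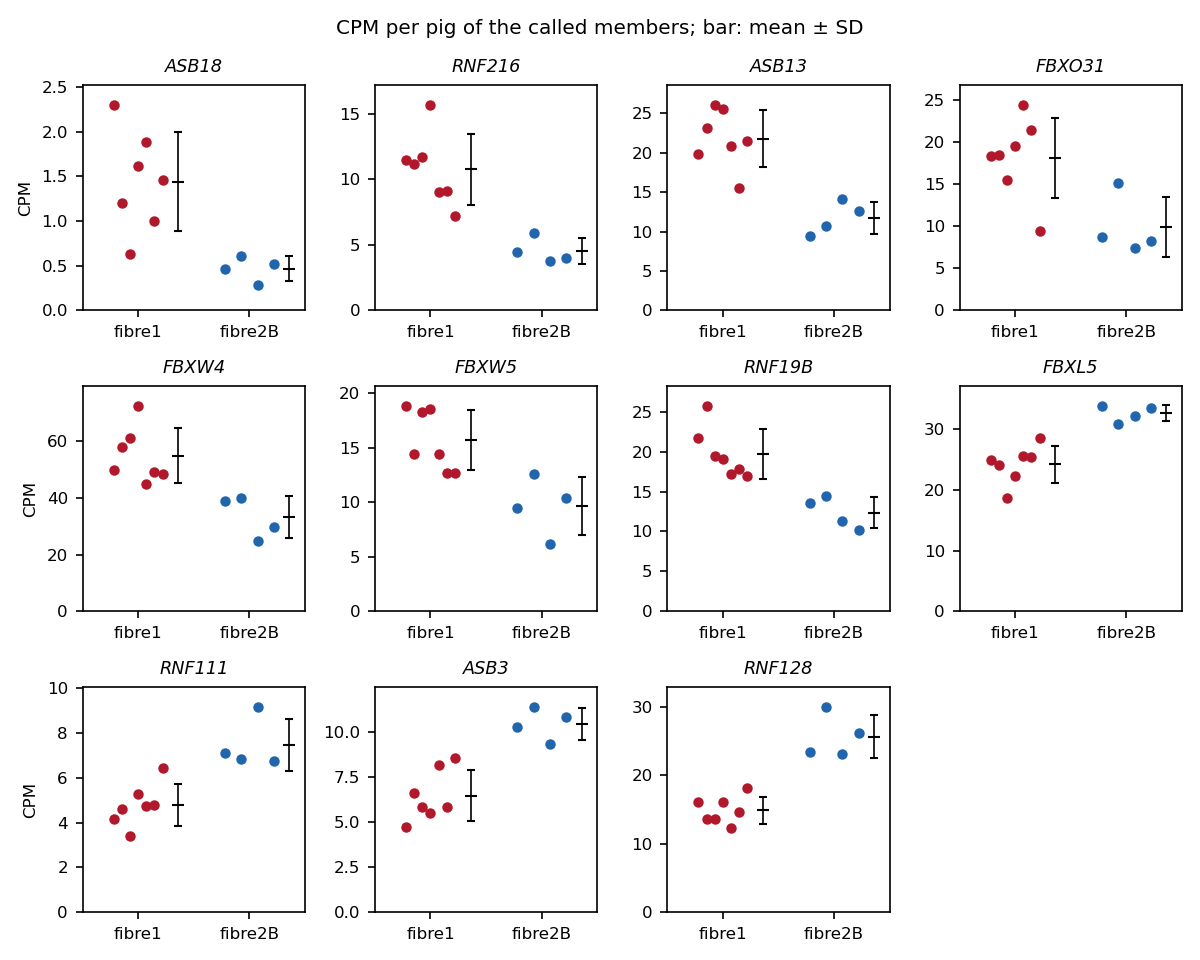
CPM of the 11 called members in each pig (red, 7 fibre1 pigs; blue, 4 fibre2B pigs), on linear axes from 0, with the mean and SD beside the points. The groups are apart in every panel except that of FBXO31, where fibre2B pig 11 at 15.2 CPM lies above fibre1 pig 17 at 9.41 CPM.

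FBXO32, or atrogin-1, did not pass the test, and 1 pig set the sign of its difference. It had 3.70, 6.84 and 11.4 CPM in fibre1 (lowest, median, highest) and 3.35, 27.7, 4.598 and 3.70 CPM in fibre2B pigs 10, 11, 14 and 16. Pig 11 held the highest value of all pigs, and the other 3 fibre2B pigs lay below the fibre1 median, 1 of them below all fibre1 pigs. With all pigs the log2 fold change was -0.56 ± 0.52 (95% interval -1.66 to 0.55, edgeR adjusted p = 0.503). Without fibre2B pig 11 it was 0.80 (adjusted p = 0.120). Among the kept members FBXO32 had the largest within-group coefficient of variation, 91.7%, where the median member had 22.6%.

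FBXO30, known as MUSA1, which is also induced in wasting muscle, had 4.33, 8.22 and 14.2 CPM in fibre1 (lowest, median, highest) and 17.3, 22.3, 16.3 and 8.23 CPM in fibre2B pigs 10, 11, 14 and 16. Of the fibre2B pigs 3 were above all fibre1 pigs, and pig 16 was within their range. The log2 fold change of -0.89 ± 0.31 did not pass with edgeR (adjusted p = 0.0824), whereas DESeq2 gave 0.0401 and edgeR gave 0.0358 once fibre1 pig 12 was left out. FBXO21, called SMART in atrophy studies, averaged 19.3 ± 2.55 CPM in fibre1 pigs and 21.5 ± 1.43 CPM in fibre2B pigs, a difference of -0.15 on the log2 scale (95% interval -0.43 to 0.13). FBXO40, a muscle F-box protein that marks the insulin receptor substrate IRS1, averaged 31.1 ± 8.90 and 28.1 ± 9.11 CPM, a difference of 0.15 on the log2 scale (95% interval -0.40 to 0.69) that was -0.0042 with library totals as the only scaling and -0.06 without fibre2B pig 14.

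The KLHL receptors of cullin 3 gave no call. KLHL40, mutated in nemaline myopathy and known to stabilise thin filament proteins, had 34.8, 40.9 and 52.9 CPM in fibre1 (lowest, median, highest) and 39.3, 43.0, 46.7 and 25.6 CPM in fibre2B pigs 10, 11, 14 and 16. The groups overlapped throughout, and the log2 fold change was 0.12 (95% interval -0.25 to 0.49, edgeR adjusted p = 0.680). Its sign changed without fibre2B pig 16 (-0.03) and with library totals as the only scaling (-0.07).

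KLHL31, expressed in muscle from early development, had 14.7 ± 5.18 against 20.02 ± 1.74 CPM (log2 fold change -0.44 ± 0.23, edgeR adjusted p = 0.218). KLHL33 had 9.50 ± 6.43 against 9.55 ± 4.87 CPM (log2 fold change -0.0043, 95% interval -1.07 to 1.06). KLHL42 had the smallest p of the family, with 1.01 ± 0.337 against 1.78 ± 0.459 CPM (-0.80 ± 0.29, edgeR adjusted p = 0.0959), and it passed without fibre1 pig 12 (0.0461). The family varied more between pigs of a group than the others, with a median within-group coefficient of variation of 35.4% against 20.2% to 26.6% in the other 6 families. That ordering was not tested, and neither was the part of count level, since members near 1 CPM are the least precise. KLHL21 (64.3%) and KLHL17 (52.6%) averaged 1.12 and 1.61 CPM in fibre1 pigs, whereas KLHL33 (62.6%) averaged 9.50 CPM there.

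Among the ASB receptors of cullin 5, ASB13 and ASB18 rose in fibre1 and ASB3 rose in fibre2B. ASB18 (ENSSSCG00000016318) was kept only through fibre1, where 6 pigs reached 1 CPM and no fibre2B pig did, so its fold and call are a description and support nothing about the family or the muscle ligases. It had 0.634, 1.46 and 2.30 CPM in fibre1 (lowest, median, highest) and 0.459, 0.607, 0.284 and 0.521 CPM in fibre2B pigs 10, 11, 14 and 16. The groups did not overlap, though the lowest fibre1 pig, pig 5, was close to fibre2B pig 11. The log2 fold change was 1.601 ± 0.37 (edgeR adjusted p = 0.0258), and the call was also lost without fibre2B pig 10 or 16 (0.0572 to 0.0864 with pig 14).

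ASB13 (ENSSSCG00000011145) had 15.5, 21.5 and 26.05 CPM in fibre1 (lowest, median, highest) and 9.45, 10.7, 14.2 and 12.6 CPM in fibre2B pigs 10, 11, 14 and 16. The groups were apart, with a log2 fold change of 0.89 ± 0.17 (edgeR adjusted p = 0.0159), and no other single pig ended the call. ASB3 (ENSSSCG00000008415), which has been tied to the degradation of a tumour necrosis factor receptor, had 4.74, 5.84 and 8.55 CPM in fibre1 (lowest, median, highest) and 10.23, 11.4, 9.31 and 10.8 CPM in fibre2B pigs 10, 11, 14 and 16. All fibre2B pigs were above all fibre1 pigs. The log2 fold change was -0.69 ± 0.17 (edgeR adjusted p = 0.0293), and the adjusted p also rose above 0.05 when fibre1 pig 2 or 5 was left out, or fibre2B pig 10, 11 or 16 (range 0.0505 to 0.0744, pig 14 included).

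The other ASB genes of the muscle ligase list did not pass. ASB2, which marks filamins, averaged 222 ± 86.8 CPM in the fibre1 pigs and 168 ± 42.4 CPM in the others (log2 fold change 0.41, 95% interval -0.20 to 1.01). ASB5 had 149 ± 23.9 against 184 ± 66.3 CPM (-0.30, -0.75 to 0.14). ASB11 had 77.3 ± 14.7 against 102 ± 13.9 CPM (-0.40, -0.73 to -0.07; edgeR adjusted p = 0.104), and it passed without fibre1 pig 7 (0.0368). The intervals of ASB10 (0.30, -0.26 to 0.86), ASB15 (-0.28, -1.002 to 0.44) and ASB4 (-0.20, -1.09 to 0.69) were wide and held 0. ASB4 was highest in fibre2B pig 11 (8.24 CPM) and had a log2 fold change of 0.40 without that pig, and ASB15 had 0.025 without fibre2B pig 10.

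**Figure D3:**
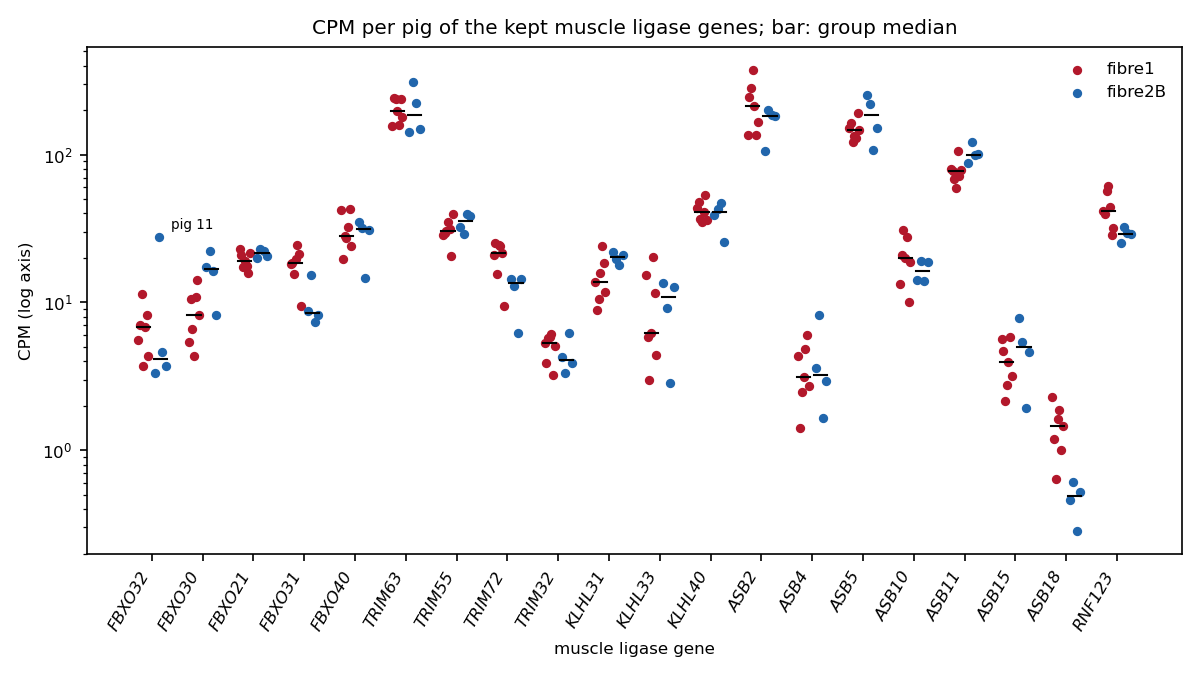
CPM (log axis) of the 20 kept muscle ligase genes in each pig (red, fibre1; blue, fibre2B), with bars at the group medians; levels are not corrected for gene length and are to be read within a gene. The groups overlap in every gene except ASB18, and the FBXO32 point of fibre2B pig 11, at 27.7 CPM, stands above the other 10 pigs.

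The TRIM family holds the MuRF genes. TRIM63, or MuRF1, which marks myosin and other thick filament proteins, had 157, 198 and 240.04 CPM in fibre1 (lowest, median, highest) and 143, 308, 223 and 149.7 CPM in fibre2B pigs 10, 11, 14 and 16. The highest and the lowest value both belonged to fibre2B pigs. The log2 fold change was -0.03 ± 0.22 (95% interval -0.50 to 0.43, edgeR adjusted p = 0.943), so a difference of more than about 0.50 in either direction lay outside the interval. It was 0.24 without fibre2B pig 11 and 0.02 with limma-voom. TRIM55, or MuRF2, a partner of titin, had 30.7 ± 5.90 against 34.9 ± 4.98 CPM (-0.18, 95% interval -0.54 to 0.17).

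TRIM72, also called MG53, which acts in repair of the muscle membrane, had 9.47, 21.4 and 25.1 CPM in fibre1 (lowest, median, highest) and 14.3, 12.96, 6.24 and 14.3 CPM in fibre2B pigs 10, 11, 14 and 16. Fibre1 pig 17 lay within the fibre2B range and the other 6 fibre1 pigs above it. Its log2 fold change of 0.75 ± 0.28 did not pass with edgeR (adjusted p = 0.0953), whereas DESeq2 gave 0.0417 and edgeR gave 0.0339 once fibre1 pig 17 was left out. TRIM45 had the smallest p of the family, with 48.6 ± 11.8 against 31.3 ± 3.58 CPM (0.64 ± 0.20, edgeR adjusted p = 0.0608). By DESeq2 its adjusted p was 0.023, and leaving out fibre1 pig 12 gave 0.0119 by edgeR. TRIM32, mutated in a limb-girdle muscular dystrophy, had 5.04 ± 1.08 against 4.42 ± 1.24 CPM (0.19, 95% interval -0.28 to 0.66, and -0.03 with library totals as the only scaling).

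Some TRIM genes are induced by interferon. TRIM21 and TRIM34, looked at after their values were seen, were both highest in fibre2B pig 14, at 2.78 and 4.995 CPM. In the other 10 pigs TRIM21 ran up to 1.86 CPM and TRIM34 up to 2.25 CPM. The summed interferon-stimulated list was 394 CPM in that pig and 49.3 to 164 CPM in the others. Of its 19 genes tested 2 were higher in fibre2B, that is 10.5%, near the 9.01% of all genes tested. A relation of the list with TRIM21 or TRIM34 was not tested. Neither TRIM21 nor TRIM34 passed (edgeR adjusted p = 0.709 and 0.329).

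Of the RNF genes, RNF216 and RNF19B rose in fibre1, and RNF128 and RNF111 rose in fibre2B. RNF216 (ENSSSCG00000021285), also known as TRIAD3, had 7.20, 11.2 and 15.7 CPM in fibre1 (lowest, median, highest) and 4.45, 5.94, 3.75 and 4.01 CPM in fibre2B pigs 10, 11, 14 and 16. The groups were apart, with means of 10.8 ± 2.70 and 4.54 ± 0.978 CPM and a log2 fold change of 1.24 ± 0.21 (edgeR adjusted p = 0.0159). RNF128 (ENSSSCG00000012551), or GRAIL, known from T cell anergy, had 12.3, 14.6 and 18.1 CPM in fibre1 (lowest, median, highest) and 23.4, 29.99, 23.2 and 26.2 CPM in fibre2B pigs 10, 11, 14 and 16. Every fibre2B pig was above every fibre1 pig, with a log2 fold change of -0.78 ± 0.13 (edgeR adjusted p = 0.0159). For these 2 genes no other single pig ended the call, and they were the 2 members still called with library totals as the only scaling.

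RNF19B (ENSSSCG00000025206) had 16.9, 19.0 and 25.7 CPM in fibre1 (lowest, median, highest) and 13.5, 14.4, 11.3 and 10.21 CPM in fibre2B pigs 10, 11, 14 and 16. The groups did not overlap (log2 fold change 0.67 ± 0.16, edgeR adjusted p = 0.025). Its call was also lost without fibre2B pig 10 or 16 (0.0512 to 0.0851 with pig 14). RNF111 (ENSSSCG00000004589), or Arkadia, which raises signalling by the transforming growth factor beta family, had 3.42, 4.73 and 6.44 CPM in fibre1 (lowest, median, highest) and 7.11, 6.80, 9.14 and 6.72 CPM in fibre2B pigs 10, 11, 14 and 16. All fibre2B pigs were above all fibre1 pigs (-0.64 ± 0.17, edgeR adjusted p = 0.0387). Its adjusted p also rose above 0.05 when fibre1 pig 1, 2, 5 or 6 was left out, or fibre2B pig 10, 11 or 16 (range 0.0523 to 0.142, pig 14 included), and with no filter (0.0544). Of the fibroblast and matrix markers 2 of 5 were higher in fibre2B, where 9.01% of all genes tested were called, and their summed ranges, given above, overlapped. The part of these cells in the RNF111 difference was not tested.

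RNF123, the catalytic subunit of a ligase for the cell cycle inhibitor p27, had 28.8, 41.3 and 61.5 CPM in fibre1 (lowest, median, highest) and 25.3, 32.3, 29.3 and 29.0 CPM in fibre2B pigs 10, 11, 14 and 16. Its log2 fold change of 0.58 ± 0.20 did not pass with edgeR (adjusted p = 0.0777), whereas DESeq2 gave 0.0435 and edgeR gave 0.0335 once fibre1 pig 12 was left out. RNF7, the RING subunit that serves cullin 5, had 120 ± 26.3 against 96.4 ± 17.4 CPM (0.32 ± 0.19, edgeR adjusted p = 0.281). RNF157 had the next largest positive fold after RNF216 in this family but a wide spread, with 15.7 ± 7.95 against 7.17 ± 3.04 CPM (1.13 ± 0.41, edgeR adjusted p = 0.0919).

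Across the 20 kept muscle ligases, 2 rose in fibre1 (FBXO31 and ASB18), 0 rose in fibre2B and 18 did not pass edgeR's test, of which 4 had an unadjusted p under 0.05. The share called was 10%, near the 9.01% of all genes tested, and it includes ASB18, which was kept only through the group where it was high. Their median log2 fold change was -0.02, with 9 positive and 11 negative values. For those not called the values ran from -0.89 (FBXO30) to 0.75 (TRIM72).

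The scaffolds and cofactors of these receptors were counted next. Of 23 tested cullin-RING partners 2 rose in fibre1, 0 rose in fibre2B and 21 did not pass, with a median log2 fold change of -0.0022. The share called was 8.7%, near the 9.01% of all genes tested. CUL4A, the scaffold of another class of cullin ligases, had 101.9, 184 and 262 CPM in fibre1 (lowest, median, highest) and 68.5, 92.8, 62.5 and 70.8 CPM in fibre2B pigs 10, 11, 14 and 16. The groups did not overlap (1.28 ± 0.24, edgeR adjusted p = 0.0159; 0.0639 without pig 14). COPS7A, a subunit of the signalosome that takes NEDD8 off cullins, had 86.5 ± 20.02 against 55.6 ± 9.73 CPM (0.64 ± 0.18, edgeR adjusted p = 0.046), a call that held only without fibre1 pig 7 or 12 among leave-outs of 1 pig. The scaffolds of the KLHL and ASB receptors had values near 0, with CUL3 at 15.96 ± 4.55 against 15.5 ± 3.89 CPM (0.04, 95% interval -0.45 to 0.54) and CUL5 at 12.1 ± 2.75 against 12.8 ± 3.32 CPM (-0.08, -0.52 to 0.35). Their signs changed with the setting, to -0.11 for CUL3 with library totals and to 0.11 for CUL5 without fibre2B pig 16. SKP1 and RBX1 had no matching ID and were not analysed here.

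Ligases outside the 7 prefixes were counted in the same way. Of 36 tested adaptors and ligases of other classes 5 rose in fibre1 and 3 rose in fibre2B, 22.2% of them beside 9.01% of all genes tested, with a median log2 fold change of 0.05. MIB2 (log2 fold change 0.87 ± 0.21, edgeR adjusted p = 0.0287) and MUL1, a ligase of the mitochondrial outer membrane (0.66 ± 0.16, 0.0294), were higher in fibre1, and KBTBD3 (-0.67 ± 0.18, 0.039) was higher in fibre2B. These 3 lost their calls without fibre2B pig 14 and without 4 to 7 other single pigs, with adjusted p up to 0.147.

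Regulators and substrates of the atrophy ligases came last. Of 14 tested regulators of FBXO32 and TRIM63 2 rose in fibre1, 0 rose in fibre2B and 12 did not pass. The share called was 14.3%, against 9.01% of all genes tested, and the list is small. AKT2, a kinase that restrains FOXO factors, had 75.8 ± 19.5 against 41.5 ± 5.83 CPM (0.87 ± 0.19, edgeR adjusted p = 0.0237), and FOXO4 had 63.4 ± 18.3 against 31.9 ± 6.80 CPM (0.99 ± 0.23, 0.0263). Each call ended when fibre1 pig 2 was left out, or fibre2B pig 10, 14 or 16 (0.0505 to 0.0892). FOXO1 had 12.2, 16.3 and 19.5 CPM in fibre1 (lowest, median, highest) and 24.5, 18.0, 45.8 and 18.8 CPM in fibre2B pigs 10, 11, 14 and 16. Its log2 fold change was -0.69 ± 0.23 (edgeR adjusted p = 0.071), -0.30 without pig 14, and it passed without pig 11 (0.048) and with DESeq2 (0.0447). FOXO3 had an ID but too few counts to be tested. Of 14 tested substrates and partners only DYSF, the membrane repair protein dysferlin, rose in fibre1 (45.02 ± 9.41 against 28.9 ± 3.05 CPM, 0.64 ± 0.17, edgeR adjusted p = 0.0371). This 1 call is 7.14% of the list, against 9.01% of all genes tested. Leaving out fibre1 pig 1, 2, 5 or 6, or any of the fibre2B pigs, ended this call (0.0564 to 0.0939).

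Some ligases also varied between pigs of the same group. Fibre2B pig 11 held the highest value of 19 of the 121 members, among them FBXO32, FBXO30, TRIM63, ASB4 and FBXO21. Pig 11 was not high throughout the muscle ligases, since TRIM55 (29.2 CPM) and TRIM32 (3.34 CPM) were at their lowest fibre2B values there. Fibre2B pig 14, the shallowest library, held the lowest value of 29 members and the highest of 15. The 29 include RNF216, FBXW4, FBXW5, FBXO31 and ASB18, which were called higher in fibre1. FOXO1 was 18.0 CPM in pig 11, whereas pig 14 had the highest FOXO1 (45.8 CPM) with an FBXO32 level of 4.598 CPM.

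**Figure D4:**
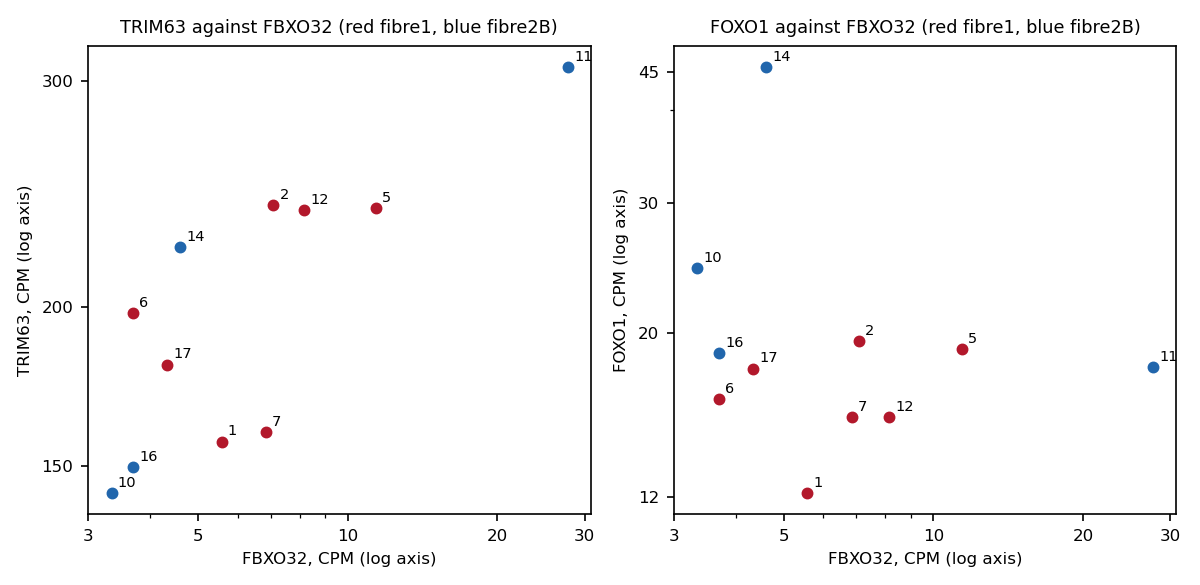
TRIM63 (left) and FOXO1 (right) against FBXO32, all in CPM on log axes, with 1 point per pig (red, fibre1; blue, fibre2B) labelled by pig number. Fibre2B pig 11 is at the upper right on the left and at the far right but low in FOXO1 on the right, and fibre2B pig 14 is at the top in FOXO1.

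FBXO32 and TRIM63 rose and fell together over the 11 pigs on log2(CPM + 1), with Pearson's r of 0.78 (permutation p = 0.0026, adjusted over 3 relations 0.0078) and Spearman's rho of 0.79 (permutation p = 0.0053, adjusted 0.0159). Without the 2 pigs farthest from the median of FBXO32, fibre1 pig 5 and fibre2B pig 11, r was 0.54 (exact permutation p = 0.132) and rho 0.65 (exact permutation p = 0.0666). Leaving out the extreme pigs also narrows the range of FBXO32 and leaves 9 pigs, so this cannot tell whether the relation rests on them. Without fibre2B pig 11 alone r was 0.63 (permutation p = 0.0496, adjusted 0.149) and rho 0.72 (permutation p = 0.0239, adjusted 0.0717). Within the 7 fibre1 pigs r was 0.53 (exact permutation p = 0.220, adjusted 0.330) and rho 0.57 (exact permutation p = 0.200), and 4 fibre2B pigs are too few for a value.

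Neither relation of FOXO1 with the ligases passed over the 11 pigs. With FBXO32 r was -0.19 (permutation p = 0.513, adjusted 0.707) and rho -0.15 (p = 0.653, adjusted 0.653). With TRIM63 r was 0.14 (permutation p = 0.707, adjusted 0.707) and rho 0.15 (p = 0.652, adjusted 0.653). Without the 2 pigs farthest from the median of the ligase, r was -0.33 (exact permutation p = 0.420) for FBXO32 and 0.39 (exact permutation p = 0.352) for TRIM63. Within the 7 fibre1 pigs r was 0.26 (exact permutation p = 0.570, adjusted 0.570) for FBXO32 and 0.68 (exact permutation p = 0.0823, adjusted 0.247) for TRIM63. Spearman's rho there was 0.29 (exact permutation p = 0.556, adjusted 0.556) for FBXO32 and 0.86 (exact permutation p = 0.0238, adjusted 0.0714) for TRIM63.

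**Figure D5:**
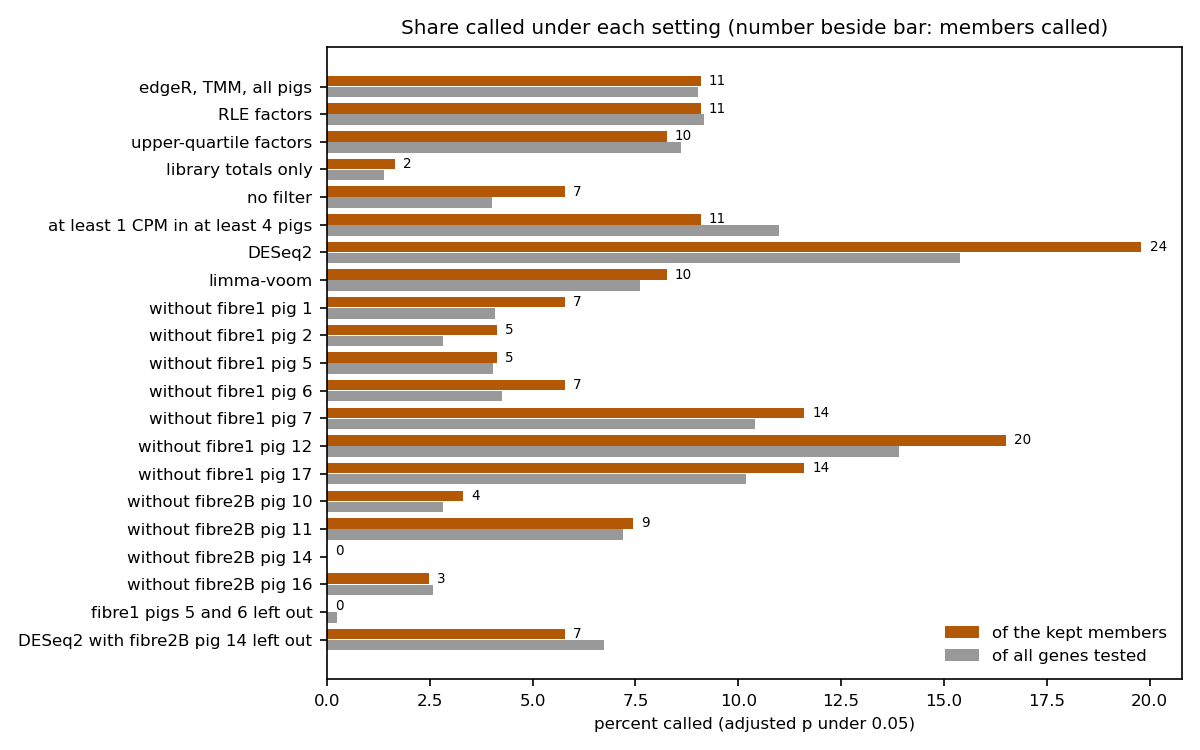
Share of members (orange, with the number called) and of all genes tested (grey) that passed an adjusted p of 0.05 under each setting, in percent. Both shares are 0 without fibre2B pig 14 and highest with DESeq2, at 19.8% of members and 15.4% of all genes.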

How the data were processed

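RNA of 11 pigs was sequenced, and the deposited values are expected counts per gene (estimated read counts, not normalized, without decimals). The submitters' processing notes list RSEM, STAR, DESeq2, edgeR, CASAVA 1.8.2 and FastQC, with Sscrofa10.2 as the build, and give no roles. The series text speaks of technical repetitions, and the deposited table has 1 column per pig. Columns were joined to pigs by the number in the title, and 0 columns were of other samples. Of 25322 gene IDs 11804 matched a symbol in a table of pig Ensembl IDs. The isoform table was not used here. Members were kept on CPM of library totals, and printed CPM values use TMM factors.

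All genes passing filterByExpr were fitted with edgeR 4.0.16 in R 4.3.3 (TMM factors, quasi-likelihood F test, group term only), and p-values were adjusted over 11329 genes. Standard errors are |log2 fold change| / sqrt(F), and intervals use its 95% t quantile. Expected counts were rounded, which changed nothing. Correlations used log2(CPM + 1) and 100000 resamples, or all orders with fewer than 10 pigs. KLHL41 had no ID, so 3 of the planned relations were computed. Alternatives were other factors and filters, DESeq2 1.42.0, limma-voom (limma 3.58.1), a pseudocount of 0.1 and leaving out pigs. The fit was also run on counts simulated with planted changes from the spread fitted to these same pigs, which cannot show how calls depend on single pigs.

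The members and gene lists were chosen with earlier results of these data known. Named were the kept muscle ligases, up to 3 called members per family and direction (or the smallest p), the 5 largest called folds in each direction and up to 4 called genes per other list, with FOXO1, FOXO3, CUL3, CUL5, SKP1 and RBX1. FBXW7, RNF7, RNF157, TRIM21 and TRIM34 were added after their values were seen. Depth was 14832736 to 36374829 counts per pig, which leaves members near 1 CPM the least precise. Coordinates of another build were not used. One gene that the naming rule selects is not reported here.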

Additional observations from a re-analysis of the deposited data

Results flagged for a closer look

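In groups of 4 or 7 pigs, 13 of 242 member values by group (5.37%) had 1 pig far from the rest, where chance gives about 5%. Most were in fibre2B pig 14 (5) and pig 11 (3). In pig 11 these were FBXO32 (27.7 CPM, next 4.598), FBXO31 (15.2, next 8.71) and KLHL22 (18.4, next 12.8). In pig 14 TRIM72 was low (6.24 CPM, next 12.96), and RNF111 (9.14, next 7.11), FBXO34 (2.61, next 1.77), TRIM21 (2.78, next 1.30) and TRIM27 (18.2, next 14.7) were high, as was the listed gene KBTBD3 (7.49, next 5.47). TRIM24 was high in fibre2B pig 10 (14.9 CPM, next 10.4). In fibre1, FBXO48 was high in pig 1 (4.94 CPM, next 3.37), RNF4 in pig 7 (12.4, next 7.80), and KLHL24 (26.1, next 14.01) and TRIM23 (3.63, next 2.25) in pig 12.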

How the results depend on the processing

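No paired analysis was possible because the groups share no pig number. With RLE factors, upper-quartile factors, at least 1 CPM in at least 4 pigs, or limma-voom, 10 or 11 members were called. These are 8.26% or 9.09% of the members, where 7.62% to 11% of all genes were called. Library totals alone called 2 members, 1 in each direction (50% of calls higher in fibre1, against 63.6%), no filter 7 (2 higher in fibre2B), and DESeq2 24 (14 and 10). These are 1.65%, 5.79% and 19.8% of the members, and the same settings called 1.39%, 4.01% and 15.4% of all genes. Without fibre1 pigs 5 and 6 the count was 0 (0 and 0), where 0.249% of all genes were called. DESeq2 without fibre2B pig 14 called 7, of which 4 were higher in fibre1. That is 5.79% of the members, against 6.73% of all genes. Both settings were chosen after seeing the data. Leaving out 1 pig gave 0 to 20 members called, 0 to 11 higher in fibre1 and 0 to 9 higher in fibre2B. As shares, 0 to 16.5% of the members were called and 0 to 13.9% of all genes. The cause was not tested.

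Library totals moved the median log2 fold change of all genes from 0.0073 to -0.19, and that of the members to -0.16, of FBXO to -0.42, TRIM to -0.19, KLHL to -0.0918 and RNF to -0.0334. DESeq2 without pig 14 gave TRIM 0.13. Leave-outs of 1 pig ranged from -0.0161 to 0.11 for the members, -0.27 to -0.21 for FBXO, -0.15 to 0.05 for FBXL, 0.26 to 0.60 for FBXW, -0.0316 to 0.13 for TRIM, -0.05 to 0.12 for KLHL, 0.11 to 0.21 for RNF and -0.31 to 0.14 for ASB.

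Among named genes that were not called, signs changed with library totals for FBXO40 (-0.0042), KLHL40 (-0.0674), TRIM32 (-0.0279) and CUL3 (-0.11). They also changed for TRIM63 with limma-voom (0.0195), for KLHL33 (0.27) and CUL5 (0.0591) without fibre1 pigs 5 and 6, and for FBXO40 (-0.0527), TRIM63 (0.0255) and CUL3 (-0.11) with DESeq2 without pig 14. Leave-outs of 1 pig ran from -0.84 to 0.80 for FBXO32, -0.17 to 0.24 for TRIM63, -0.30 to 0.20 for KLHL33, -0.0564 to 0.27 for FBXO40, -0.0322 to 0.23 for KLHL40, -0.44 to 0.40 for ASB4, -0.53 to 0.0248 for ASB15, -0.11 to 0.14 for CUL3 and -0.17 to 0.11 for CUL5.

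Pearson's r of FBXO32 with TRIM63 ran from 0.63 to 0.83 over leave-outs, of FBXO32 with FOXO1 from -0.25 to -0.09 and of TRIM63 with FOXO1 from 0.0087 to 0.28, and with library totals FBXO32 with FOXO1 had 0.0094. DESeq2 gave FBXO32 no adjusted p.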

Other observations

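RNF216 and RNF19B belong to the RING-between-RING class, whose members pass ubiquitin through a cysteine of their own. Of 7 kept members of this class, gathered after their values were seen and given with no test, 6 were on the fibre1 side, and the median log2 fold change was 0.47. RNF216 and RNF19B were the 2 of the 7 that were called, in a fit that called 9.01% of all genes tested. RNF14 averaged 115 ± 25.5 CPM in the fibre1 pigs and 76.8 ± 9.57 CPM in the others (0.58 ± 0.18, edgeR adjusted p = 0.0572). RNF31, the catalytic subunit of the linear ubiquitin ligase complex, had 22.5 ± 2.88 against 17.7 ± 1.89 CPM (0.34 ± 0.14, edgeR adjusted p = 0.112). Its partner RBCK1, outside the 7 prefixes, passed with 18.2 ± 2.98 against 12.1 ± 1.905 CPM (0.59 ± 0.16, edgeR adjusted p = 0.039). The groups of RBCK1 overlapped, with 13.8 CPM in fibre1 pig 12 and 14.2 CPM in fibre2B pig 14. ARIH2, a ligase of the same class that works with cullin 5, also passed, with 80.2 ± 7.95 against 59.4 ± 7.06 CPM (0.43 ± 0.12, edgeR adjusted p = 0.0448). Without fibre2B pig 14 no gene was called by edgeR, these included. Neither RBCK1 nor ARIH2 was among the genes named by rule. RNF19A had a negative value (-0.25 ± 0.15).

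FBXL4, a mitochondrial F-box protein also picked after its values were seen, was high in fibre2B pigs 10 and 11 (35.4 and 34.5 CPM) and low in pigs 14 and 16 (10.4 and 11.98 CPM), while fibre1 pigs ran from 11.6 to 27.2 CPM.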
